A study of Mus musculus with 24 samples.

Results

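The 10 genes described here carry growth hormone and prolactin signals into the hepatocyte and switch them off again: the receptors Ghr and Prlr, the kinase Jak2, the transcription factors Stat3, Stat5a and Stat5b, and the feedback inhibitors Cish, Socs1, Socs2 and Socs3. They were chosen by name, as the array probes that carry these symbols, and make up 10 of the 21495 genes and transcripts that could be tested. Each gene is represented by its brightest probe over all arrays. The 23 probes of the 10 genes include 13 further probes, of which 12 could be tested as a check.

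Liver RNA was measured on Agilent mouse arrays in 24 male C57BL/6J mice of 12 weeks. Each liver had its own array, and the 4 groups held 6 livers each. LWT are floxed littermates without Cre, with p110α intact. LKO carry albumin-Cre, which removes part of Pik3ca, the gene of the phosphoinositide 3-kinase subunit p110α, in hepatocytes and not by design in other liver cells; both genotypes carry the floxed alleles. LWT_Fed and LKO_Fed had food, LWT_Fasted and LKO_Fasted went 24 h without it. Every liver was collected at zeitgeber time 16, when the lights are off. All values are normalized log2 signals unless a fold is named. Fold changes, standard errors (SE) and adjusted p-values come from a single limma model with a slide term and array weights. A gene is said to have risen or fallen where its p, adjusted over all probes, was at most 0.05. These are whole livers, so fewer cells of a type and less RNA per cell cannot be told apart.

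Growth hormone binds its receptor as a dimer, which brings together and activates JAK2. JAK2 phosphorylates STAT5, and STAT5 enters the nucleus and switches on its target genes, among them Igf1, Igfals, Cish and Socs2. CIS, the product of Cish, and the SOCS proteins then bind receptors or kinases and shut the signal down, so their mRNAs are often read as a trace of recent cytokine signalling. SOCS3 is mainly known as the inhibitor induced by STAT3 downstream of interleukin 6, and SOCS1 as an inhibitor of interferon signalling. In male rodents growth hormone is released in pulses, and fasting is known to make the liver resistant to it.

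On single arrays 54.7% to 63.0% of spots exceeded the background clearly, and the 10 chosen probes did so on all 24. Precision depends here on how many arrays each group has and on the spread between mice, which is given below for each gene. The Pik3ca probe read 11.91 ± 0.21 (SD, n = 6) in LWT_Fed and 12.54 ± 0.26 in LKO_Fed, and it was not lower in the arrays labelled LKO (log2 fold change 0.58, adjusted p = 0.00147, in fed mice, and -0.02, adjusted p = 0.93, in fasted mice). Whether that probe lies in the deleted part was not established here, so it does not check the labels. LKO_Fasted replicates 1 and 2 stood apart from the other 4 mice of their group on the second principal component of all tested probes, which held 13.6% of the variance. Their scores were -35.06 and -31.25, against -2.92 to -1.40 in the other 4 and -28.97 to -19.14 in LKO_Fed. For the chosen probes of the 10 genes, results that involve LKO_Fasted are given without these mice where that changed a call. Other probes and the gene lists were not refitted without them. Of the 10 hepatocyte markers all were measured, and their summed signal was 2480000 to 2780000 over the 24 arrays. Its median was 2640000 in LWT_Fed, 2680000 in LWT_Fasted, 2630000 in LKO_Fed and 2520000 in LKO_Fasted. In fasted LKO, where Ghr was lower than in fasted LWT, 2 of the 10 markers were lower too, or 20% against 10.6% of all genes, and their part in that result was not tested.

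Because STAT5 and STAT3 both bind the palindrome TTCNNNGAA, the promoters of the 10 genes were searched for it. RefSeq start-site windows of GRCm38.p6, from 250 bases before to 50 bases after the start, were found for 9 of the 10 genes. They number 14, since some genes have several starts, and 3 of the 14 held the motif. Among all 32851 windows of that length 8.30% held it, and 0.457% held it more than once, as Cish did. The motif reads the same on both strands. Socs2 is the gene without a window here. All sites found are shown, because the growth hormone response runs through this motif. The motif is in capitals, 5′ to 3′ on the strand of the gene, and the match is only a match of letters.

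Cish, motif at bases 1 to 9 and 12 to 20 after the start that follows chr9:107296409-107296658, plus strand: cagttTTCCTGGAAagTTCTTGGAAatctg
Socs3, motif at bases -154 to -146, in the 250 bases before the start at chr11:117969367-117969616, minus strand: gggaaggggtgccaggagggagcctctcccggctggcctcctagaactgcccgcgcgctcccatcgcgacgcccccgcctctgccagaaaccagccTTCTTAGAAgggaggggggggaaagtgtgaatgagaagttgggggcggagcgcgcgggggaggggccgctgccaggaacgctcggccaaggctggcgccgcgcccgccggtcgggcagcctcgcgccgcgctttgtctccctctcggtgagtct
Prlr, motif at bases -110 to -102 of 1 of its 3 starts, within chr15:10223656-10223905, plus strand: gcaaaatgagTTCTAGGAAtaagggatatc

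**Figure D1:**
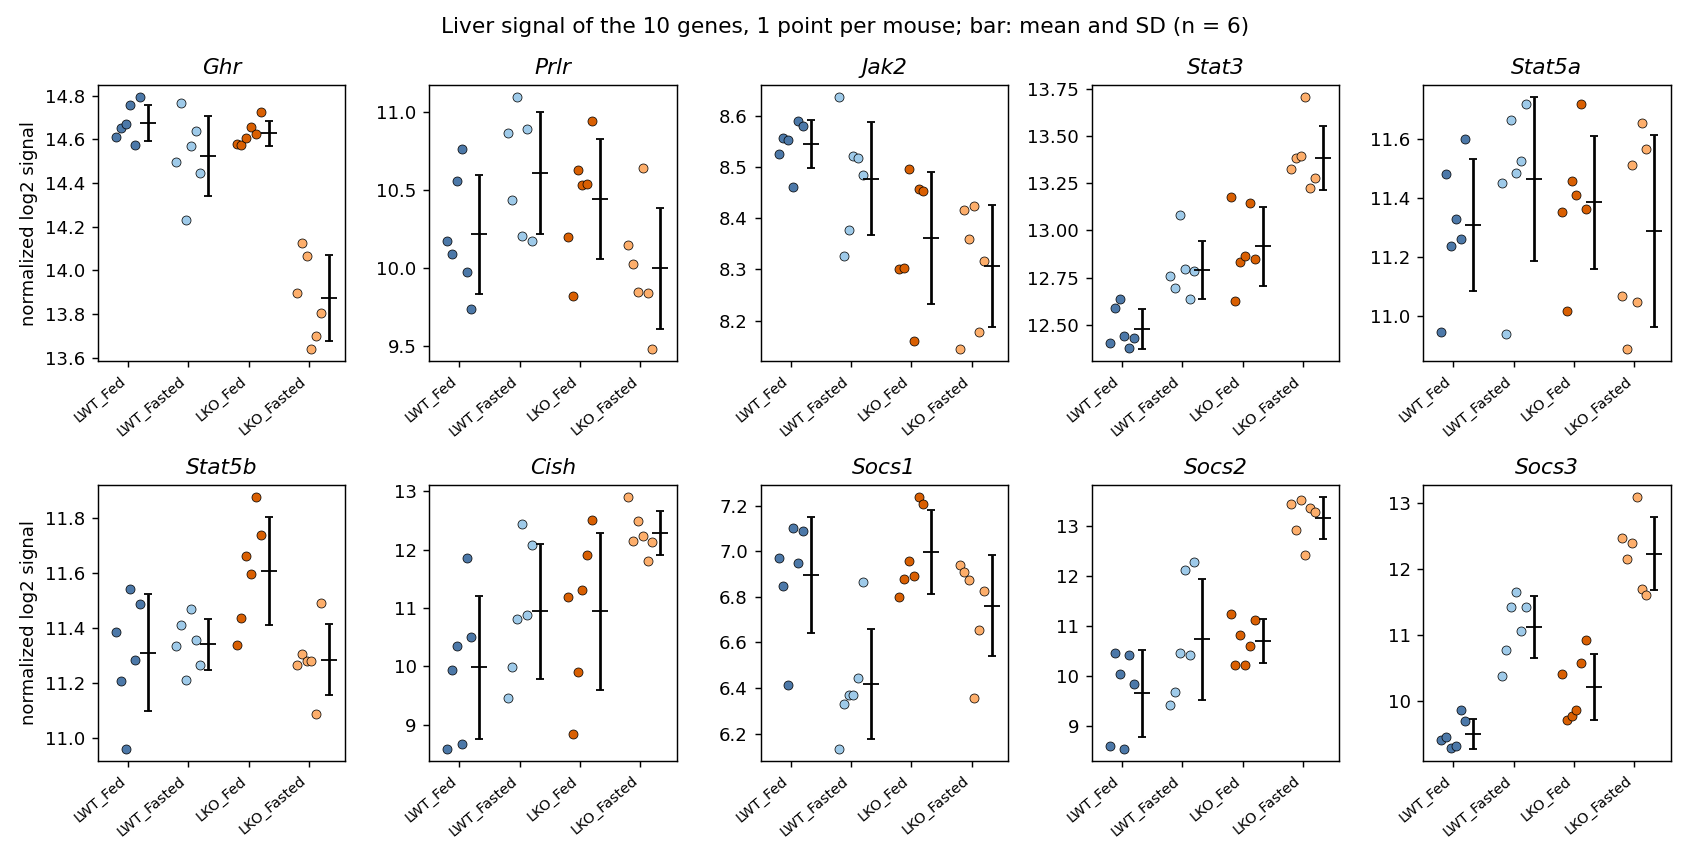
Normalized log2 signal of each of the 10 genes (vertical axis, a separate scale per panel) in the 24 livers, grouped by genotype and feeding. Each point is 1 mouse, and the bar gives mean and SD of 6. All 6 LKO_Fasted mice lie below the other groups for Ghr and above them for Socs2 and Stat3.

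With fasting, Socs2 and Socs3 had the largest changes that passed. In LWT livers Socs3, Socs2 and Stat3 rose with fasting and Socs1 fell, which makes 4 of the 10 genes, against 41.5% of all genes tested. Among LKO livers Socs3, Socs2 and Stat3 rose, and Ghr and Stat5b fell, which makes 5 of the 10, again against 41.5% of all genes. Socs2 and Socs3 also passed a fold of 1.5 in LWT, and Ghr, Socs2 and Socs3 did in LKO, where 10% and 12.8% of all genes passed both limits. The arrays of fed and fasted mice did not overlap for Socs3 in LWT and for Ghr, Stat3, Socs2 and Socs3 in LKO, as for 21.6% and 22.1% of all genes. The median log2 fold change over the 10 genes was 0.31 in LWT and -0.05 in LKO, and over all genes it was -0.01 and -0.02.

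Between genotypes, 1 of the 10 genes passed in fed mice and 7 in fasted mice. In fed mice Stat3 alone of the 10 passed, higher in LKO, where 16.4% of all genes passed, none of the 10 passed the fold of 1.5 as well, as 3.83% of all genes did, and none was free of overlap, as 8.63% of all genes were. In fasted mice 7 of the 10 passed, against 20.6% of all genes: Stat3, Socs1, Socs2 and Socs3 were higher in LKO, and Ghr, Prlr and Jak2 were lower. Of these, Ghr, Prlr, Socs2 and Socs3 passed the fold of 1.5 too, against 4.06% of all genes, and Ghr, Stat3 and Socs2 did not overlap, as for 8.67% of all genes. The interaction sets the fasting changes of both genotypes against each other, LKO minus LWT. It passed for Ghr only, where 7.97% of all genes passed and 3.09% did so with a ratio of folds above 1.5. These counts are unsteady. With 1 array left out, the count in fed mice was 3 without LKO_Fed replicate 2 or LWT_Fasted replicate 1, and 2 without LKO_Fed replicate 1, 3 or 6, LWT_Fasted replicate 4 or LWT_Fed replicate 2. In fasted mice it was 4 without LKO_Fasted replicate 6, LWT_Fasted replicate 1 or 5 or LWT_Fed replicate 5. On the authors' matrix 4 passed in fed mice. Without LKO_Fasted replicates 1 and 2, the count in fasted mice was 4, which no longer held Jak2, Socs1 and Socs3, and the interaction passed for Ghr and Prlr. The median difference over the 10 genes was 0.24 on the log2 scale in fed mice and 0.15 in fasted mice, and -0.01 and 0.00 over all genes.

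**Figure D2:**
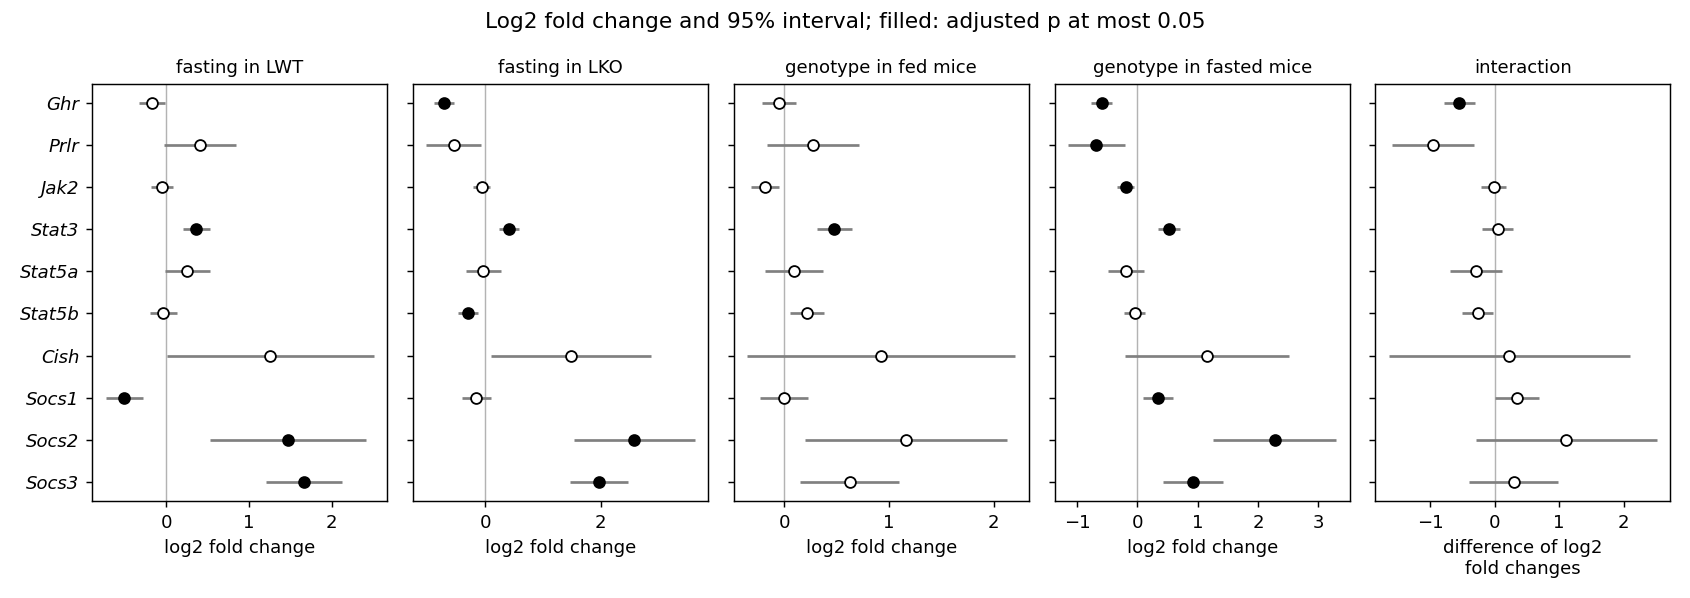
Log2 fold change of each of the 10 genes (horizontal axis, a separate scale per panel) with its 95% interval in the 4 comparisons, and the difference of the fasting changes under interaction. Filled points passed an adjusted p of at most 0.05; Cish has the widest intervals, and Ghr alone is filled under interaction.

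Ghr, the growth hormone receptor, was lower in the fasted LKO liver than in each of the other groups. The 6 LWT_Fed livers ran from 14.57 to 14.79 (median 14.66), LWT_Fasted from 14.23 to 14.77 (median 14.53) and LKO_Fed from 14.58 to 14.73 (median 14.62). LKO_Fasted livers read 13.64 to 14.13 (median 13.85), all of them below the lowest mouse of any other group. Ghr fell by 0.72 on the log2 scale with fasting in LKO, or 1.65-fold (SE 0.0831, adjusted p = 3.95e-07). In LWT the fasting change was -0.18 (SE 0.0752, adjusted p = 0.0651). The difference between these changes was itself tested and was -0.54 (SE 0.112, adjusted p = 0.00513), with a 95% interval from -0.77 to -0.31. Fed LKO and fed LWT livers differed by -0.05 (95% interval -0.21 to 0.11), and fasted ones by -0.59 (SE 0.0816, adjusted p = 3.33e-05). In the order of the levels, LWT_Fed, LKO_Fed and LWT_Fasted lay close together and LKO_Fasted lay apart.

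Further probes read other parts of the Ghr locus, on the minus strand of mm9 chromosome 15. The chosen probe, at chr15:3277543-3277602, is named in the files for transcript variant 2. A second probe, at chr15:3268107-3268166, is named for variant 1, and a probe across an exon junction spans chr15:3283509-3290961. In mice Ghr mRNAs encode the full receptor and, by another 3′ end, a soluble binding protein. Which of these each probe reads was not checked on a genome, and the same holds for the probes of Prlr. The probe named for variant 1 fell by 0.37 with fasting in LWT (adjusted p = 0.00132) and by 1.01 in LKO (adjusted p = 1.83e-08), with an interaction of -0.64 (adjusted p = 0.00416). The junction probe fell by 0.21 in LWT (adjusted p = 0.0141) and by 0.57 in LKO (adjusted p = 2.09e-06), and its interaction was -0.36 (adjusted p = 0.033). On this probe fed LKO livers were lower too, by -0.22 (adjusted p = 0.0333). Another probe, at chr15:3295320-3295379, gave -0.70 in LWT (adjusted p = 0.0069), against -1.47 in LKO (adjusted p = 1.34e-05). Its interaction, -0.76, had an adjusted p of 0.122. So fasting in LWT passed on 3 of the 4 probes, all but the chosen one, and the interaction on 3 of the 4. Between fasted genotypes, LKO was lower by 0.72 on the variant 1 probe (adjusted p = 1.53e-05) and by 0.58 on the junction probe (adjusted p = 1.25e-05). On the probe at chr15:3295320-3295379 the difference was -0.45 and did not pass (adjusted p = 0.153), and the fasted groups overlapped. The junction probe is printed because it spans an intron and keeps 1 open reading frame over its length, so it reads spliced Ghr mRNA.

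Ghr junction probe: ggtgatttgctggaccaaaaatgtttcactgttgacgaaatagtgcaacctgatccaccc

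Prlr, the prolactin receptor, had values that overlapped between all groups. LWT_Fed livers ran from 9.74 to 10.76 (median 10.13), LWT_Fasted from 10.17 to 11.09 (median 10.65), LKO_Fed from 9.82 to 10.94 (median 10.54) and LKO_Fasted from 9.48 to 10.64 (median 9.94). Fasted LKO livers were lower than fasted LWT livers by 0.68 (SE 0.226, adjusted p = 0.0366), with 5 of the 6 below the lowest LWT_Fasted mouse. The call was lost when any of 7 single arrays was left out, with an adjusted p of up to 0.109 without LKO_Fasted replicate 6. Log2 fold changes with fasting were 0.41 in LWT (adjusted p = 0.123), against -0.55 in LKO (adjusted p = 0.062). Their difference of -0.95 had an adjusted p of 0.0632. The chosen probe, at chr15:10278249-10278308 of mm9, is named for transcript variant 2. A probe at chr15:10255629-10255688, which the files name for transcript variant 1, fell by 0.48 with fasting in LKO (adjusted p = 0.0234) and differed by -0.38 between fasted genotypes (adjusted p = 0.104). A further probe at chr15:10259066-10259125 differed by 0.12 between fasted genotypes (adjusted p = 0.775). The probes of Prlr therefore do not give a single picture of the gene.

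Jak2, the kinase on both receptors, had a narrow range, from 8.15 to 8.64 over the 24 livers. Medians were 8.55 in LWT_Fed, 8.50 in LWT_Fasted, 8.38 in LKO_Fed and 8.34 in LKO_Fasted. Its fasting changes were -0.05 in LWT (95% interval -0.18 to 0.08) and -0.06 in LKO (95% interval -0.21 to 0.08). Fasted LKO livers were lower than fasted LWT livers by 0.20 (SE 0.0688, adjusted p = 0.0481), a call lost when any of 15 single arrays was left out, with adjusted p of up to 0.117 without LKO_Fasted replicate 1. The difference between fed livers was of like size, -0.19 (SE 0.0648, adjusted p = 0.0552). A second Jak2 probe was too dim to be tested.

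Stat3, the factor of the interleukin 6 pathway that leptin and growth hormone can also engage, was higher both with fasting and in LKO. LWT_Fed livers ran from 12.38 to 12.64 (median 12.44), LWT_Fasted from 12.64 to 13.08 (median 12.77), LKO_Fed from 12.63 to 13.18 (median 12.86) and LKO_Fasted from 13.23 to 13.70 (median 13.35). The 6 LKO_Fasted mice lay above every mouse of the other groups. Fasting raised Stat3 by 0.36 in LWT (SE 0.0786, adjusted p = 0.000809) and by 0.41 in LKO (SE 0.0869, adjusted p = 0.000634). LKO exceeded LWT by 0.48 in fed mice (SE 0.0804, adjusted p = 0.000457) and by 0.53 in fasted mice (SE 0.0853, adjusted p = 0.000178). These folds were 1.28, 1.33, 1.39 and 1.44, and the interaction was 0.05 (95% interval -0.19 to 0.29). They rest on a single probe, at chr11:100749598-100749657 of mm9. A pair of dimmer Stat3 probes gave differences between 0.04 and 0.26 in the same direction, none of which passed.

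Stat5a and Stat5b, the pair that carries most of the growth hormone response in liver, differed little between groups. Stat5a ran from 10.95 to 11.60 in LWT_Fed, 10.94 to 11.72 in LWT_Fasted, 11.02 to 11.72 in LKO_Fed and 10.89 to 11.66 in LKO_Fasted, so all groups overlapped. No comparison passed, and the widest 95% interval among the 4, for fasting in LKO, reached from -0.33 to 0.27. Stat3 and Stat5a lie tail to tail on chromosome 11 of mm9, and a Stat3 probe on the minus strand, at chr11:100746462-100746521, starts just beyond a Stat5a probe on the plus strand, at chr11:100746373-100746432. Stat5b ran from 10.96 to 11.54 in LWT_Fed (median 11.33), 11.21 to 11.47 in LWT_Fasted (median 11.35), 11.34 to 11.88 in LKO_Fed (median 11.63) and 11.09 to 11.49 in LKO_Fasted (median 11.28). It fell with fasting in LKO by 0.30 (SE 0.0855, adjusted p = 0.00733), a 1.23-fold decrease, and in LWT the change was -0.04 (95% interval -0.20 to 0.12). The difference of these changes, -0.26, had an adjusted p of 0.176. On a second Stat5b probe the LKO decrease was 0.59 (adjusted p = 0.00377).

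Socs2, an inhibitor of growth hormone signalling that STAT5 switches on, had the largest log2 difference of the 10 genes with fasting in LKO and between fasted genotypes. LWT_Fed livers ran from 8.56 to 10.46 (median 9.94), LWT_Fasted from 9.42 to 12.29 (median 10.44), LKO_Fed from 10.23 to 11.25 (median 10.71) and LKO_Fasted from 12.42 to 13.52 (median 13.32). All 6 LKO_Fasted mice were above every mouse of the other groups. Fasting raised Socs2 in LKO by 2.58 (SE 0.502, adjusted p = 0.000257), a 5.99-fold increase, and in LWT by 1.47 (SE 0.454, adjusted p = 0.0124), a 2.77-fold increase. In LWT the high values came from few mice: LWT_Fasted replicates 4 and 6 read 12.12 and 12.29 and the other 4 read 9.42 to 10.47, within or just above the fed range. It had an adjusted p of 0.0981 without LWT_Fasted replicate 6, 0.0501 without LWT_Fed replicate 1, 0.057 without LWT_Fed replicate 4 and 0.0586 without array weights. Fasted LKO livers exceeded fasted LWT livers by 2.27 (SE 0.493, adjusted p = 0.00228), a 4.84-fold difference, and by 2.38 (adjusted p = 0.0067) without LKO_Fasted replicates 1 and 2. In fed mice the difference was 1.16 (95% interval 0.20 to 2.12, adjusted p = 0.0949). The interaction was 1.11 with a 95% interval from -0.29 to 2.52 (adjusted p = 0.344), so the fasting changes of the genotypes were not shown to differ.

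The chosen Socs2 probe, at chr10:94875066-94875125 of mm9 on the minus strand, has no open frame and its neighbour at chr10:94875468-94875527 does. The neighbour is printed because it reads the coding part of the same mRNA. It rose by 2.37 with fasting in LKO (adjusted p = 0.000221) and by 1.21 in LWT (adjusted p = 0.0215), and fasted LKO exceeded fasted LWT by 2.14 (adjusted p = 0.00165). Of the remaining pair of Socs2 probes, far downstream and much dimmer, one gave 1.02 and the other 0.24 with fasting in LKO, both passing. These probes carry accessions of other transcripts, and why their folds were smaller was not tested.

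Socs2 coding probe: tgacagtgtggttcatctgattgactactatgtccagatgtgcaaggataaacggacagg

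**Figure D3:**
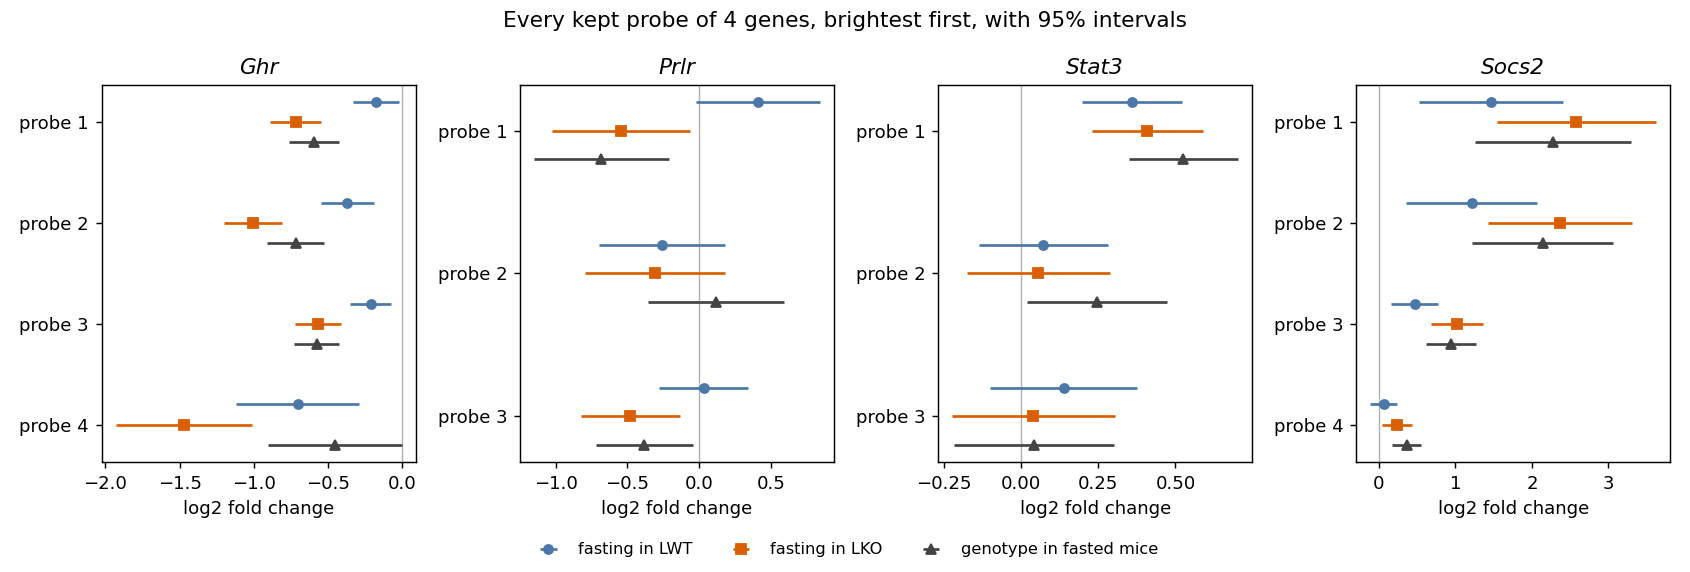
Log2 fold change (horizontal axis) with its 95% interval for each tested probe of Ghr, Prlr, Stat3 and Socs2, ordered by mean signal, in 3 comparisons. The probes of Ghr and Socs2 point the same way, whereas those of Prlr run from -0.68 to 0.12 between fasted genotypes and only the brightest Stat3 probe passed.

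Socs3, the inhibitor that STAT3 switches on, rose with fasting in both genotypes. LWT_Fed livers ran from 9.29 to 9.86 (median 9.43), LKO_Fed from 9.71 to 10.92 (median 10.14), LWT_Fasted from 10.38 to 11.64 (median 11.24) and LKO_Fasted from 11.60 to 13.08 (median 12.26). Fed and fasted mice did not overlap in LWT or in LKO. The fasting increase was 1.67 in LWT (SE 0.222, adjusted p = 3.05e-06) and 1.97 in LKO (SE 0.245, adjusted p = 1.12e-06), which are folds of 3.18 and 3.91. The interaction was 0.30 (95% interval -0.39 to 0.98). Fasted LKO livers exceeded fasted LWT livers by 0.92 (SE 0.241, adjusted p = 0.00908), and by 0.80 with an adjusted p of 0.0505 without LKO_Fasted replicates 1 and 2. In fed mice the difference was 0.62 (SE 0.227, adjusted p = 0.0669). LKO_Fed and LWT_Fasted, the neighbours in the middle of the order, were not compared by the model. Socs3 has 1 probe on the array, at chr11:117827480-117827539 of mm9.

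Socs1, the inhibitor of interferon signalling, moved the other way and over a small range, from 6.13 to 7.24. LWT_Fed livers had a median of 6.96, LWT_Fasted of 6.37, LKO_Fed of 6.92 and LKO_Fasted of 6.85. Fasting lowered Socs1 in LWT by 0.51 (SE 0.11, adjusted p = 0.000706), a 1.42-fold decrease, and the groups overlapped through LWT_Fed replicates 2 and 3, at 6.85 and 6.41, and LWT_Fasted replicates 5 and 6, at 6.44 and 6.86. In LKO the change was -0.16 (95% interval -0.41 to 0.09), and the difference between the changes, 0.35, had an adjusted p of 0.201. Fasted LKO livers exceeded fasted LWT livers by 0.35 (SE 0.119, adjusted p = 0.0436), a call lost when any of 11 single arrays was left out, with an adjusted p of up to 0.121 without LWT_Fasted replicate 1.

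Cish, the gene of CIS and an immediate STAT5 target, differed so much between mice of 1 group that no comparison passed. LWT_Fed livers ran from 8.59 to 11.85 (median 10.13), LWT_Fasted from 9.45 to 12.43 (median 10.84) and LKO_Fed from 8.84 to 12.50 (median 11.24). The lowest and highest mouse of a group were thus 9.57-fold, 7.90-fold and 12.6-fold apart. LKO_Fasted livers ran from 11.81 to 12.90 (median 12.19), only 2.12-fold apart, with the highest mouse above the highest of the other groups, 12.50 in LKO_Fed. Fasting changes were 1.26 in LWT (95% interval 0.00 to 2.51, adjusted p = 0.102) and 1.49 in LKO (95% interval 0.10 to 2.87, adjusted p = 0.0796). LKO and LWT differed by 0.93 in fed mice (adjusted p = 0.34) and by 1.16 in fasted mice (adjusted p = 0.235). Fasting in LWT had an adjusted p of 0.0327 without LWT_Fed replicate 5, the highest of its group.

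The spread of Cish within groups was a pooled SD of 1.095, and only 0.140% of all genes had a larger one, where the median gene had 0.16. Socs2 followed with 0.80, exceeded by 0.423% of genes, and Socs3 with 0.45, exceeded by 2.88%. Prlr had 0.39 (exceeded by 4.82%), Stat5a 0.27 (14.6%), Socs1 0.23 (21.9%), Stat5b 0.17 (46.2%), Stat3 0.16 (47.2%), Ghr 0.14 (60.9%) and Jak2 0.11 (86.6%). The inhibitors Cish, Socs2 and Socs3 thus varied most from mouse to mouse, and Ghr and Jak2 least.

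To see whether the inhibitors varied together, each mouse's deviation from its group mean was compared between genes over the 24 mice. Pearson's r was 0.74 for Cish and Socs2 (Spearman's rho 0.71) and 0.70 for Cish and Socs3 (rho 0.75). Within-group permutation p-values, two-sided and adjusted over the 6 pairs of the 4 inhibitors, were 0.00051 and 0.00024 for r, and 0.00198 and 0.0003 for rho. A mouse with more Cish than its group mates thus tended to have more Socs2 and Socs3. Without the 2 mice farthest from the median Cish deviation, r was 0.76 and 0.68. On the 3 slides taken singly r ran from 0.73 to 0.76 for Cish and Socs2 and from 0.68 to 0.76 for Cish and Socs3. For Socs2 and Socs3 r was 0.41 (rho 0.45) with adjusted permutation p of 0.0792 and 0.0579, and without LKO_Fasted replicate 4, which had the highest Socs3 and the lowest Socs2 of its group, r was 0.60 (adjusted p = 0.00546, permutation test). The 3 pairs with Socs1 had r of 0.23 to 0.31, with adjusted permutation p of 0.251 to 0.289. Leaving out LKO_Fasted replicate 4 raised r for Socs1 and Socs3 to 0.54 (permutation p adjusted, 0.0138).

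Within single groups of 6 mice the correlation of Cish with Socs2 was 0.85 in LWT_Fed, 0.98 in LWT_Fasted, 0.48 in LKO_Fed and 0.27 in LKO_Fasted. With Socs3 it was 0.77, 0.92, 0.86 and 0.50 in the same order. Of the 24 exact permutation tests, 6 pairs in 4 groups, the lowest p was 0.00556, and the lowest adjusted over the 24 was 0.0888.

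**Figure D4:**
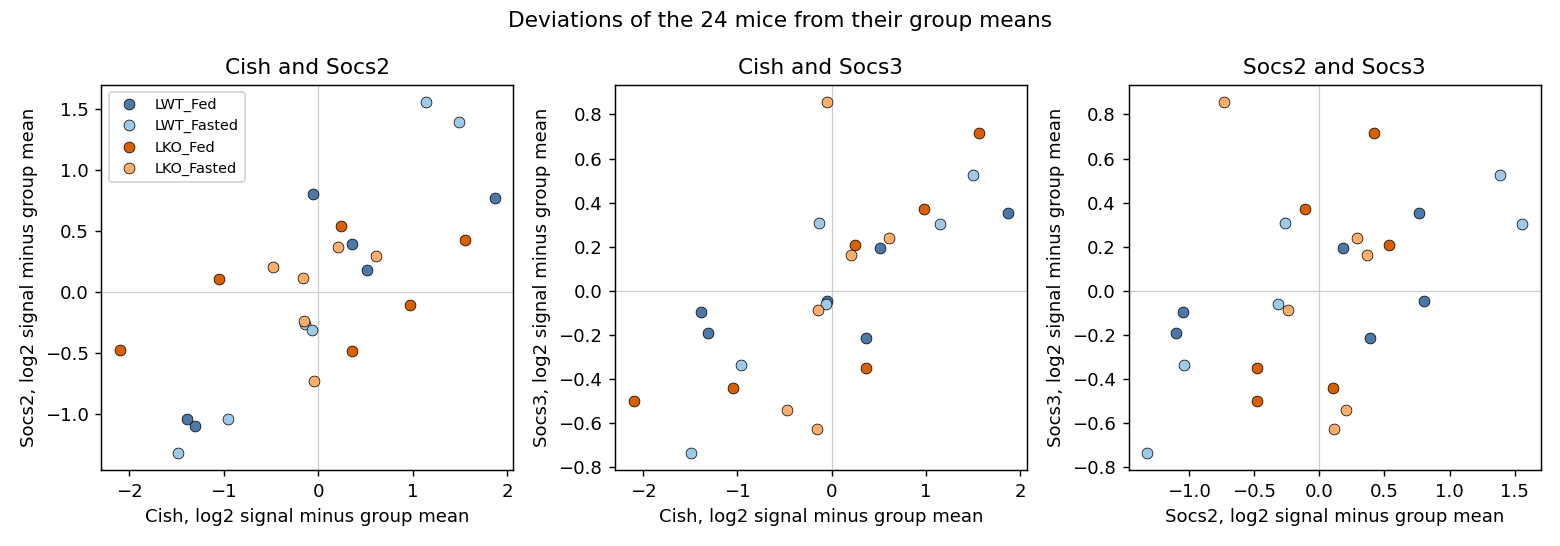
Deviation of each of the 24 mice from its group mean, in log2 units on both axes, for 3 pairs of inhibitors, coloured by group. Points rise together for Cish with Socs2 and with Socs3 (r of 0.74 and 0.70), and LKO_Fasted replicate 4 lies alone at the upper left of the plot of Socs2 and Socs3.

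Bcl6, a repressor that growth hormone pulses keep down through STAT5, is given beside them because its values went the opposite way, and it was chosen after these were seen. It ran from 10.86 to 13.62 in LWT_Fed, 10.07 to 12.14 in LWT_Fasted, 10.26 to 13.64 in LKO_Fed and 9.53 to 9.82 in LKO_Fasted. LKO_Fasted was the group with the narrowest spread for Bcl6 and for Cish. Bcl6 fell with fasting by 1.74 in LWT (SE 0.53, adjusted p = 0.0113) and by 2.46 in LKO (SE 0.586, adjusted p = 0.00176). Its deviations from the group means correlated with those of Cish at r = -0.70 (rho -0.68) and of Socs2 at r = -0.57 (rho -0.61) over 24 mice. With Socs3 r was -0.29 (rho -0.30). Since Bcl6 was picked for this pattern, these values are a description and carry no test. Without the 2 mice farthest on the first gene r was -0.58, -0.50 and -0.36. On single slides r with Cish ran from -0.86 to -0.42, and in LKO_Fasted alone it was 0.22.

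The list of further targets and regulators of growth hormone and STAT5 includes Bcl6, which STAT5 represses, beside genes that STAT5 activates. None of its 6 measured genes rose in any comparison; 2 fell with fasting in LWT, 3 in LKO, and 2 were lower in fasted LKO than in fasted LWT. That is 33.3%, 50% and 33.3% of the list, against 21.7%, 21.8% and 10.6% of all genes that were lower. Bcl6 is among those that fell with fasting in both genotypes, so these counts mix genes of opposite roles. The median was -0.13 with fasting in LWT and -0.18 in LKO, where all genes had -0.01 and -0.02. Igfals, the acid-labile subunit that carries IGF-1 in blood, fell by 0.38 in LWT (adjusted p = 0.0231) and by 0.98 in LKO (adjusted p = 1.07e-05), and was lower in fasted LKO by 0.49 (adjusted p = 0.0172). Igfbp3, an IGF binding protein, fell by 0.42 in LKO (adjusted p = 0.00932). Igf1 itself, the main hormone product of this pathway, read 15.89 to 16.34 over all 24 livers on its brightest probe, with fasting changes of 0.05 in LWT and 0.07 in LKO (95% intervals -0.09 to 0.18 and -0.08 to 0.21). A pair of dimmer Igf1 probes gave 0.87 (adjusted p = 0.00671) and 1.19 (adjusted p = 0.00848) with fasting in LWT, so the probes of Igf1 disagree.

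Among 27 measured further genes of the receptor pathway, 7 rose and 7 fell with fasting in LWT and 7 rose and 8 fell in LKO. That is 25.9% and 25.9%, and 25.9% and 29.6%, against 19.9% higher and 21.7% lower of all genes in LWT and 19.7% and 21.8% in LKO. Lepr, the leptin receptor, which signals through JAK2 and STAT3, changed most: it rose by 0.49 with fasting in LWT (adjusted p = 0.0208) and by 2.25 in LKO (adjusted p = 2.22e-09), with an interaction of 1.76 (adjusted p = 0.00022). It was higher in LKO by 0.80 in fed mice (adjusted p = 0.00251) and by 2.57 in fasted mice (adjusted p = 5.96e-09). Il6ra, the interleukin 6 receptor, went the other way: it rose by 1.22 in LWT (adjusted p = 2.7e-06), changed by 0.03 in LKO (95% interval -0.34 to 0.40), and had an interaction of -1.20 (adjusted p = 0.00428). Sh2b2, an adaptor of JAK2, fell by 0.64 in LWT (adjusted p = 0.00468). Its change in LKO was -0.02 (adjusted p = 0.947), and the interaction, 0.62, had an adjusted p of 0.147. Jak3 rose in LKO by 0.59 (adjusted p = 0.000342), and its interaction was 0.52 (adjusted p = 0.0485). Socs5 fell in both genotypes, by 0.28 in LWT (adjusted p = 0.00377) and by 0.43 in LKO (adjusted p = 0.000191). The receptor adaptor Grb10 did too, with -0.48 in LWT (adjusted p = 0.00619) and a log2 change in LKO of -0.55 (adjusted p = 0.00477).

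Lists of genes read out by STAT3, interferon and the sex-dependent growth hormone pattern were counted in the same way. Of 27 targets of interleukin 6 and STAT3, 9 rose and 3 fell with fasting in LWT, and 10 rose and 6 fell in LKO. That is 33.3% and 11.1% in LWT and 37% and 22.2% in LKO, against 19.9% and 21.7%, and 19.7% and 21.8%, of all genes. Between genotypes 5 were higher and none lower in fed LKO, or 18.5% against 8.81% of all genes higher, and 4 were higher and 1 lower in fasted LKO, or 14.8% and 3.7%, against 10% and 10.6% of all genes. Lbp, which binds bacterial lipopolysaccharide, rose by 1.63 in LWT (adjusted p = 1.22e-10), against 1.15 in LKO (adjusted p = 6.01e-08), and Il1rn, the interleukin 1 receptor antagonist, by 1.33 (adjusted p = 3.5e-05) and 3.18 (adjusted p = 6.59e-10). The Il1rn probe was well above background on only 2 of 6 LWT_Fed arrays and 5 of 6 LKO_Fed arrays. Its fed level thus lay near background, and the size of its increases is uncertain. Saa4, a constitutive serum amyloid A, fell in LKO by 1.76 (adjusted p = 7.61e-07). Of 18 interferon targets, none rose and 13 fell with fasting in LWT (median -0.65), and 2 rose and 8 fell in LKO (median -0.17). Oasl1 fell by 1.75 in LWT (adjusted p = 6.59e-09) and by 1.02 in LKO (adjusted p = 3.69e-05), with an interaction of 0.73 (adjusted p = 0.0481). In fed LKO none of the 18 was higher and 4 were lower than in fed LWT, or 22.2% against 7.6% of all genes lower. In fasted LKO 6 were higher and 3 were lower than in fasted LWT, or 33.3% and 16.7%, against 10% and 10.6% of all genes. Igtp, an interferon-induced GTPase, was higher by 0.71 (adjusted p = 0.000225), and the chemokine gene Cxcl9 was lower (log2 difference -0.75, adjusted p = 0.0336).

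Of 21 measured male-biased liver genes, 3 rose and 4 fell with fasting in LWT and 4 rose and 7 fell in LKO. That is 14.3% and 19% in LWT, against 19.9% and 21.7% of all genes, and 19% and 33.3% in LKO, against 19.7% and 21.8%. None was higher and 7 were lower in fasted LKO than in fasted LWT (median -0.24), which is 33.3%, against 10.6% of all genes lower and 10% higher. Hsd3b5, a steroid dehydrogenase of the male liver, gave -2.55 with fasting in LWT (adjusted p = 1.84e-06), against -4.58 in LKO (adjusted p = 1.42e-09). Both passed, and its interaction was -2.03 (adjusted p = 0.0141). Elovl3, on the same list, rose by 1.70 with fasting in LWT (adjusted p = 0.00336). In fed LKO 1 of the 21, Susd4, was higher than in fed LWT, by 0.64 (adjusted p = 0.0408), and 2 were lower. That is 4.76% and 9.52%, against 8.81% and 7.6% of all genes. Cyp4a12a was lower in LKO by 1.27 in fed mice (adjusted p = 0.000119) and by 0.72 in fasted mice (adjusted p = 0.0108); it has near-identical paralogs, so its probe may read several of them. Of 15 measured female-biased genes, 6 rose and none fell with fasting in LWT, and 5 rose and 2 fell in LKO. That is 40% and 0% in LWT, against 19.9% and 21.7% of all genes, and 33.3% and 13.3% in LKO, against 19.7% and 21.8%. Acot3, an acyl-CoA thioesterase, rose by 3.14 (adjusted p = 3.54e-07) and 4.47 (adjusted p = 7.11e-09), and Tox, a nuclear factor, by 1.56 (adjusted p = 8.28e-07) and 1.87 (adjusted p = 2.14e-07). Cyp2a4, a cytochrome P450 gene with close paralogs, went the other way, with -1.20 in LKO (adjusted p = 0.000348) and an interaction of -1.09 (adjusted p = 0.0435). In fasted LKO 1 of the 15 was higher and 2 were lower than in fasted LWT, among them Cyp2a4 at -1.05 (adjusted p = 0.00311). These are 6.67% and 13.3%, against 10% and 10.6% of all genes.

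Marker lists of other cells were read beside these results, where 19.9% of all genes rose and 21.7% fell with fasting in LWT and 19.7% and 21.8% did in LKO. For Kupffer and myeloid cells, 10 of 10 markers were measured and their summed signal ran from 28400 to 67600 in LWT_Fasted, 32900 to 113000 in LKO_Fasted and 44600 to 67800 in the fed groups; 2 of the 10 fell with fasting in LWT and 1 in LKO. Endothelial sums lay between 24100 and 46000 in all groups, with 1 of 10 markers lower with fasting in LWT and 2 higher in LKO. Stellate cell sums lay between 29400 and 46200, with 2 higher and 3 lower in LWT and 1 higher and 4 lower in LKO. Cholangiocyte sums were 10800 to 17300 over 7 of 8 markers, and lymphocyte sums 11200 to 23500 over 8 of 10, with Cd8a and Cd79a not measured above background. Of the adipose markers, Adipoq and Ucp1 were not above background, and the sum of the other 5 was 430 to 1350 in all but LWT_Fasted, where it reached 5620. Of 8 pancreatic markers 3 were measured, with sums of 3870 to 6270 in LKO_Fasted and 7100 to 15300 in the other groups. Between genotypes, 3 of 7 cholangiocyte markers were lower in fed LKO and 2 of 7 in fasted LKO, where 7.6% and 10.6% of all genes were lower. Of 10 endothelial markers 2 were lower in fed LKO and none in fasted LKO. In fed LKO 1 Kupffer and myeloid marker was higher, and no stellate cell or lymphocyte marker passed between genotypes. Of the pancreatic markers 1 of 3 was lower in fed LKO and 2 of 3 in fasted LKO, and of the adipose markers 1 of 5 in each. The part of other cells in the results on the 10 genes was not tested.

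The genes whose levels most resembled each of the 10 over the 24 livers were taken by Pearson's r, which here also carries the differences between groups. Ghr was most like Cd82 (r = 0.93), C1s2 (0.93) and the hepatic transporter Slco1b2 (0.92). Socs3 was most like an unnamed cDNA (0.94), Csrp2 (0.94) and Pheta1 (0.94). Socs2 resembled an unnamed transcript (0.93), the ceramide glucosyltransferase gene Ugcg (0.91) and Plcxd2 (0.88). Stat3 resembled 3 transcripts without a gene name here (0.91 to 0.93). Socs1 resembled Snrpc (0.86) and a predicted gene (0.83). Stat5a came closest to Raver1 (0.88), Ssbp2 (0.82) and Zfp692 (0.77), and Stat5b to Prpf8 (0.84), Dlc1 (0.82) and an unnamed cDNA (0.79). Jak2 came closest to Lama4 (0.82), Prss54 (0.81) and Tprgl (0.81), and Prlr to an intergenic transcript (0.76), Gm20878 (0.75) and Hexim1 (0.74).

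Cish was most like an intergenic transcript (r = 0.88), Egfros (0.85) and F830014O18Rik (0.85). That transcript is read by a probe at chr10:94871153-94871212 of mm9, on the strand of Socs2 and 3.85 kb beyond the chosen Socs2 probe, and its r with Socs2 was 0.76. It rose with fasting by 0.91 in LWT (adjusted p = 0.0235) and by 0.99 in LKO (adjusted p = 0.0265). In deviations from the group means alone, the gene most like Socs2 was Onecut1 (r = 0.86), a liver factor on the list of growth hormone and STAT5 regulators, and the gene most like Stat5a was Raver1 (r = 0.94).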

How the data were processed

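RNA of 24 livers was run by the authors on Agilent SurePrint G3 mouse arrays in 1 colour. Scans were quantified in Feature Extraction 10.10.1.1, as the file headers and the submitters' processing notes state. The deposited values used here are intensities: the median and mean spot signal, the local background and the processed signal, none scaled between arrays. The deposited matrix holds log2 values, and it was used as an alternative. Per their methods, the authors filtered the median signal, corrected it for the washing bath and quantile normalized it. The washing bath is not in the labels used here. The probes of the matrix number 32595, each array's median is 8.06, and its Spearman rho with the median signal was at least 0.999996. Within an array the matrix thus kept almost the order of the uncorrected signal. Whether it carries the correction for the washing bath was not established.

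Outlier spots were dropped, spots of a probe averaged, and 32197 of 56605 probes kept that cleared the background in 5 or all 6 arrays of any group. The median signal, not corrected for background, was log2 transformed, quantile normalized and fitted with limma 3.58.1 in R 4.3.3 (lmFit, arrayWeights, eBayes) with group means and slide; the 3 slides of 8 arrays carried 2 arrays of each group. P-values were adjusted over all probes (Benjamini-Hochberg). On simulated data at 6 against 6 arrays, 92% of log2 changes of 0.8 and 98% of 1.5 were recovered over 32197 probes, with 16 false among 206 calls. The simulated noise was independent between probes and arrays, with no slide effect and no poor arrays. These rates are averages over probes drawn regardless of their spread, so they do not hold for a gene as variable as Cish. Means are raw group means, and fold changes come from the weighted fit, so they can differ.

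The 10 genes and all lists were chosen with earlier results of these data known. Named from each list were the up to 4 passing genes with the largest change per comparison, with Igf1, Igfals and Il6ra always; not all of these are printed, and some genes are not reported here. Symbols came from the files or, for 32994 probes, from RefSeq (GRCm38.p6); probe positions are mm9 as deposited. A gene or transcript counted once, by its brightest kept probe. Correlations used 100000 permutations within groups (Python, scipy). Each mouse is in 1 group, and the labels do not say whether equal replicate numbers mark related mice, so no pairing was used. Deviations of same-numbered mice of different groups correlated at -0.179 to 0.275 (median -0.031 over 36 pairs). Those of differently numbered mice correlated at -0.336 to 0.378 (median 0.004 over 180 pairs). Alternatives were the processed signal, normexp (offset 50), 75th percentile scaling, the authors' matrix, other filters, no array weights, other slide, row and replicate terms, only the groups compared, other probes, and arrays left out.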

Additional observations from a re-analysis of the deposited data

Results flagged for a closer look

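The change of Ghr with fasting differed between the genotypes: the change in LKO minus that in LWT was -0.54 on the log2 scale (adjusted p = 0.00513 in limma). The values without LKO_Fasted replicates 1 and 2 were -0.61 and an adjusted p of 0.00186.

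In 4 of the 40 gene and group combinations, 1 mouse lay far from the other 5, measured as the gap to its nearest neighbour over the range of the group. Chance alone gives about 1 in 20. Stat3 was high in LWT_Fasted replicate 3 (0.637) and in LKO_Fasted replicate 4 (0.642), Stat5a was low in LWT_Fasted replicate 2 (0.657), and Socs1 was low in LWT_Fed replicate 3 (0.627). LWT_Fed replicate 3, LKO_Fasted replicate 4 and LWT_Fasted replicate 2 also had the lowest array weights of the 24, at 0.32, 0.36 and 0.44.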

How the results depend on the processing

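Leaving out 1 array at a time, the number of the 10 genes that passed ran from 3 to 5 for fasting in LWT, 5 to 6 for fasting in LKO, 1 to 3 for genotype in fed mice, 4 to 7 for genotype in fasted mice and 1 to 2 for the interaction. With a fold above 1.5 required as well, 2, 3, 0, 4 and 0 passed in these comparisons. Genotype in fed mice gave 2 with the processed signal, normexp, 75th percentile scaling, no array weights or only the groups compared, 3 without the slide term or with slide as a random block, and 4 with the authors' matrix or with probes well above background on all arrays. Genotype in fasted mice gave 4 without the filter on dim probes, without array weights, with only the groups compared and without LKO_Fasted replicates 1 and 2. The interaction gave 2 with normexp, the authors' matrix, probes well above background on all arrays, no slide term, slide as a random block, and without those replicates. The cause of these moves was not tested. With the replicate number as a block, 2 of the 10 passed for genotype in fed mice and 4 for genotype in fasted mice, so the block moved these counts. The labels do not say whether these numbers pair the mice. Of 640 single values under other settings, 589 stayed on the same side of the threshold, 30 came to pass, 21 ceased to, and none of those that passed changed sign. A further Prlr probe reversed the difference between fasted genotypes, to 0.12. The second Jak2 probe was well above background on 2 or 3 of 6 arrays per group and was not tested.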
